A study of Mus musculus with 18 samples.

Results

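RGS proteins (regulators of G protein signalling) are the brakes of receptor signalling, and 10 of their genes were followed here in mouse heart: Rgs2, Rgs3, Rgs4, Rgs5, Rgs6, Rgs10, Rgs12, Rgs14, Rgs16 and Rgs19. They were taken by name, whatever their level, and all 10 are among the 23457 genes of the deposited count table. Hearts came from 18 male C57BL/6 mice, 17 weeks old, 6 in each of 3 groups. One group had received rAAV6-PLCb1b, an adeno-associated virus carrying a splice variant of phospholipase C beta 1, one rAAV6-PLCb1a, carrying the other splice variant, and one rAAV6-blank, a control virus with a promoter and no protein product. All 18 mice were therefore injected with virus, no uninjected mouse was sequenced, and the viral genes carried a FLAG tag. Each heart is a separate animal and is named by its mouse number. The labels describe the tissue as both ventricles, while the study's methods name the left ventricle. The total was 13246339 to 24155465 counts per heart, of which 3908354 to 7591558 fell on nuclear genes.

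A Gq-coupled receptor loads the G protein alpha subunit with GTP, and the loaded subunit switches on phospholipase C beta until the GTP is hydrolysed. RGS proteins bind the loaded subunit and speed that hydrolysis, so they shorten the signal just upstream of the enzyme that the viruses delivered. Members of the R4 subfamily (Rgs2, Rgs3, Rgs4, Rgs5 and Rgs16) act on Gq, on Gi or on both, whereas the R7 (Rgs6) and R12 (Rgs10, Rgs12 and Rgs14) subfamilies and Rgs19 of the RZ subfamily are known mainly for Gi and its relatives. The comparison of each PLCb1 group with blank hearts asks whether the RNA of these brakes differed after chronic phospholipase overexpression, and that between the PLCb1 groups asks the same of the variant that the study describes as active in heart against the one it describes as inactive.

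The 3 promoters printed here belong to the members on which the values turn. Rgs2 varied most between hearts for its level, and Rgs5 and Rgs4, which lie 47.95 kb apart on chromosome 1 with no annotated gene between them, transcribed towards each other, were expressed at very different levels. Each sequence is the 250 bases before the start of the gene, 5' to 3' on the gene's strand, from RefSeq on GRCm38.p6, whose promoter table matched 9 of the 10 members. They lie at chr1:144004150-144004399 on the minus strand (Rgs2), chr1:169655251-169655500 on the plus strand (Rgs5) and chr1:169747643-169747892 on the minus strand (Rgs4). Capitals mark the cAMP response element core TGACG, the TATA box TATAAA, the GC box GGGCGG and the CCAAT box CCAAT, each searched on both strands.
Rgs2: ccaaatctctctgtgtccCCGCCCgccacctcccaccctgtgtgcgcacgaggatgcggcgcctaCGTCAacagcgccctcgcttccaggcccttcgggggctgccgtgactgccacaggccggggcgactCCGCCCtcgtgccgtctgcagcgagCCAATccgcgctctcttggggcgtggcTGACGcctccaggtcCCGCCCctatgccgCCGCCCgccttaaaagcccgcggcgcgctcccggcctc
Rgs5: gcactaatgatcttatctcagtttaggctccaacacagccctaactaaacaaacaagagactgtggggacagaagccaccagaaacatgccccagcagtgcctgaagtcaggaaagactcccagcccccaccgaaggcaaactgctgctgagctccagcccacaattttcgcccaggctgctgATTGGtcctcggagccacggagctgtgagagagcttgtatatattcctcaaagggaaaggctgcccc
Rgs4: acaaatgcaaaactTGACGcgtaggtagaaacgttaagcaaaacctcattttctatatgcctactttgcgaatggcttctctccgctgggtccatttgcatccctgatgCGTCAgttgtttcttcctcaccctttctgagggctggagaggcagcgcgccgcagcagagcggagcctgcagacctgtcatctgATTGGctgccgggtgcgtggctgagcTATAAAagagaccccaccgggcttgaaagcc

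The Rgs2 window held 2 cAMP element cores, at 67 to 63 and 185 to 181 bases before the start, with 4 GC boxes and 1 CCAAT box. The Rgs4 window also held 2 such cores, at 141 to 137 and 236 to 232 bases before the start, with a TATA box at 31 to 26 and a CCAAT box. The Rgs5 window held 1 CCAAT box and no match to the exact letters of the other 3 motifs. Over 32851 RefSeq promoters, windows of the same length held the cAMP core in 17.8%, the TATA box in 12.4%, the GC box in 32.7% and the CCAAT box in 33.8%. These are matches of exact letters. Variants of the motifs were not searched, so a window without a match can still hold one, and no binding was measured.

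Rgs5, a gene used to mark pericytes and other cells around vessels, was by far the most abundant of the 10. Levels between genes are compared as the deposited FPKM (fragment counts scaled to exon length and to sequencing depth). In blank hearts Rgs5 stood at 79.1 FPKM ± 3.80 (SD, n = 6), between 73.9 and 83.4, above 98.6% of all genes in the FPKM table. It made up 75.1 to 81.6% of the summed FPKM of the 10 genes in every one of the 18 hearts. Rgs2 followed at 5.68 FPKM ± 1.61, 13.9 times lower, then Rgs4 at 3.95 ± 0.372, Rgs3 at 3.55 ± 0.245, Rgs6 at 2.19 ± 0.267, Rgs10 at 2.14 ± 0.338, Rgs12 at 1.76 ± 0.151 and Rgs19 at 1.105 ± 0.0659 (SD, n = 6 each). Rgs16 at 0.115 FPKM ± 0.0705 and Rgs14 at 0.0776 ± 0.0432 were near the limit of detection.

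Several neighbours in this order could not be separated. The blank ranges of Rgs2 and Rgs4, Rgs4 and Rgs3, Rgs6 and Rgs10, Rgs10 and Rgs12, and Rgs16 and Rgs14 overlapped. Rgs6 exceeded Rgs10 in 7 of 18 hearts, so their order is not resolved, while Rgs2 exceeded Rgs4 in 18 of 18 although their blank ranges overlapped. Rgs3 was ranked 4 by FPKM and 7 by counts per kilobase of merged exons. It has 3 annotated transcripts over 7301 merged exon bases, the longest of the 10, so that its level per length depends on which transcript is assumed. Rgs5, Rgs2 and Rgs4 led on both scales. For comparison, the Gq subunits themselves stood at 2.52 to 3.25 FPKM (Gnaq) and 5.81 to 7.10 FPKM (Gna11) over the 18 hearts.

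**Figure D1:**
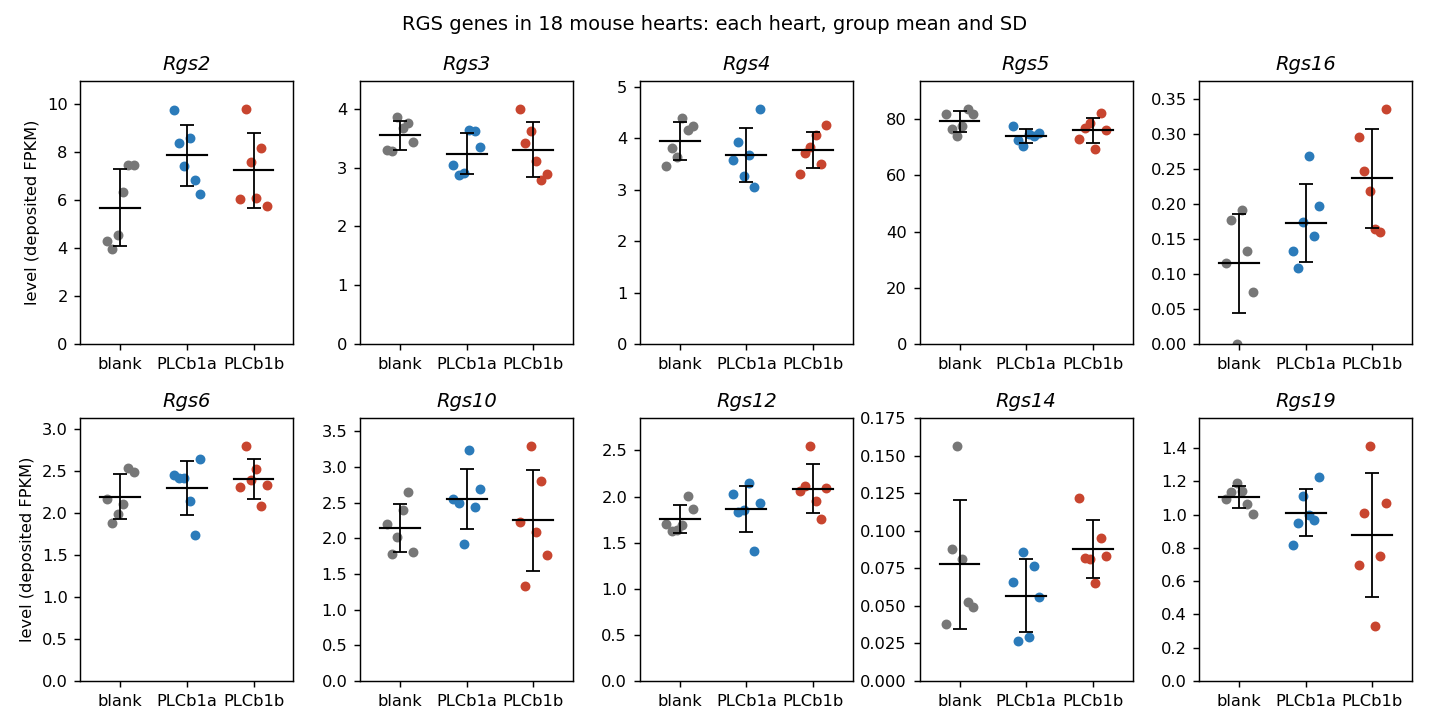
Level of each RGS gene (deposited FPKM, linear axes from 0 that differ between panels) in each of 6 blank, 6 PLCb1a and 6 PLCb1b hearts, with group mean and SD. The 3 groups overlap in every panel, and blank hearts of Rgs2 fall between 3.95 and 7.47 FPKM.

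Of 16 further RGS and RGS-binding genes, 15 are in the count table and 6 passed the filter on low counts. Gnb5, the beta subunit that partners the R7 proteins, stood at 2.63 to 4.57 FPKM over the 18 hearts and Axin1, a scaffold of Wnt signalling with an RGS domain, at 1.63 to 2.68. Rgs7bp, which anchors R7 proteins at the membrane, stood at 0.553 to 1.14 FPKM, Axin2 at 0.282 to 0.577, Rgs7 at 0.115 to 0.604 and Rgs17 at 0.123 to 0.265. The R7 partner Gnb5 was at a higher FPKM than Rgs6, the only R7 member above 1 FPKM, in 18 of 18 hearts. None of these 6 was called in any comparison, and none reached an unadjusted p under 0.05 in edgeR's quasi-likelihood test.

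The viral gene was checked first. Plcb1 stood at 5.43 to 6.89 CPM (counts scaled to library size, with no allowance for gene length) in blank hearts, at 17.8 to 29.3 CPM in PLCb1a hearts and at 23.2 to 70.0 CPM in PLCb1b hearts. Every heart with a PLCb1 virus lay above every blank heart. The spread was wider in PLCb1b hearts, where the highest heart held 3.02 times the lowest, against 1.64 times in PLCb1a hearts. The log2 difference from blank was 2.90 ± 0.25 (SE) in PLCb1b hearts and 1.82 ± 0.26 in PLCb1a hearts (FDR 8.24e-05 and 0.0299, edgeR's quasi-likelihood test with Benjamini-Hochberg adjustment over all genes). Plcb1 was also higher in PLCb1b than in PLCb1a hearts, by 1.09 ± 0.22 (SE) on the log2 scale (unadjusted p = 0.00014, FDR 0.801, same test). In the comparison of the PLCb1 groups the variant therefore cannot be told apart from the amount of its RNA. The annotated gene and the viral copy are counted together.

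No RGS gene was called in any comparison of groups. Of the 10, 8 passed the filter on low counts, and Rgs14 and Rgs16 did not. At an FDR below 0.1, 0 of 8 were called between PLCb1b and blank hearts (0.0977% of 12281 genes were called in that comparison), 0 of 8 between PLCb1a and blank hearts (0.138%) and 0 of 8 between PLCb1b and PLCb1a hearts (0.0%, with 543 of the 12281 genes at an unadjusted p under 0.05). DESeq2 and limma on log2 FPKM also called 0 of the 8. At an unadjusted p under 0.05 stood 1 of 8 members between PLCb1b and blank hearts, against 7.41% of all genes, 2 of 8 between PLCb1a and blank, against 8.58%, and 0 of 8 between the PLCb1 groups, against 4.42%. Members were split evenly, with 4 higher and 4 lower in each comparison, and their median log2 fold change was 0.018, 0.022 and -0.0049, beside -0.00089, -0.0018 and 0.00088 over all genes. No member separated the 6 hearts of one group from the 6 of another in CPM, which 0.48%, 0.594% and 0.179% of all genes did in the 3 comparisons in the same order. The PLCb1 groups share the 6 blank hearts, so their differences from blank are not independent.

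**Figure D2:**
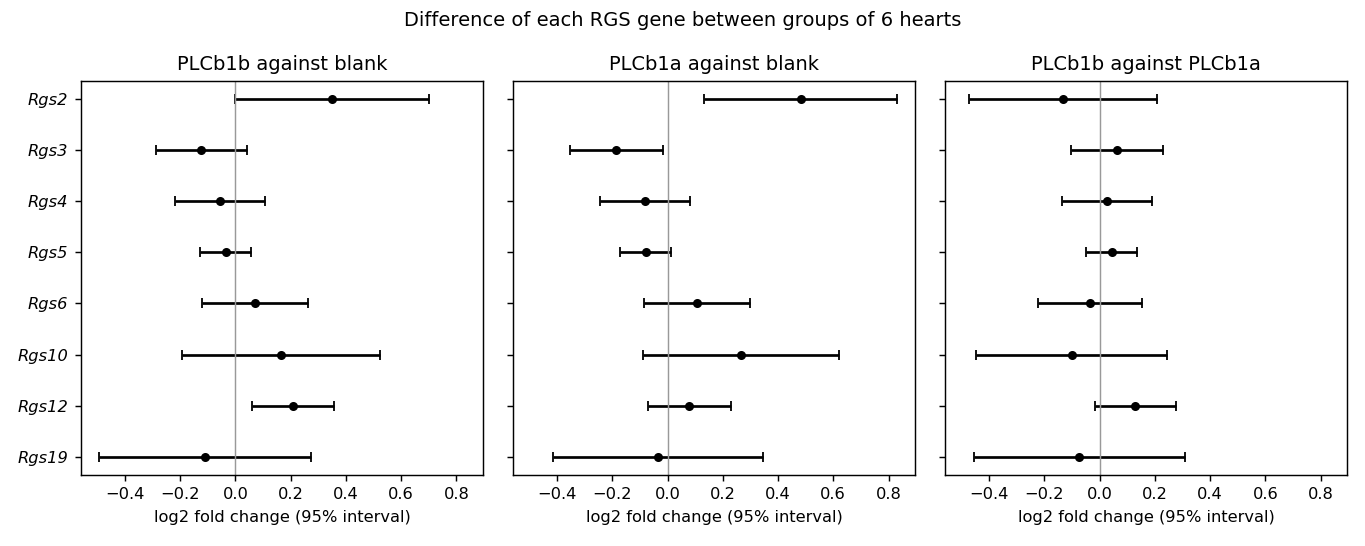
Log2 fold change (points) with 95% interval (bars) of the 8 RGS genes past the filter, from edgeR's quasi-likelihood fit of 18 hearts, in the 3 comparisons. The interval of Rgs2 in PLCb1a against blank runs from 0.13 to 0.83, and that of Rgs5 in PLCb1b against blank from -0.13 to 0.057.

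Rgs2, the R4 member most selective for Gq, had the largest estimated difference of the 8. Blank hearts 26, 30 and 32 held 4.31, 3.95 and 4.55 FPKM of Rgs2 and blank hearts 33, 34 and 36 held 6.32, 7.47 and 7.46. PLCb1a hearts ranged from 6.27 to 9.75 with a median of 7.89, and PLCb1b hearts from 5.76 to 9.78 with a median of 6.84. The first 3 blank hearts lay below all 12 hearts with a PLCb1 virus, whereas the other 3 lay inside their range. The mean was 1.40-fold higher in PLCb1a than in blank hearts (log2 0.48 ± 0.16 SE, 95% interval 0.13 to 0.83, unadjusted p = 0.01, FDR 0.380) and 1.27-fold higher in PLCb1b hearts (log2 0.35 ± 0.17, interval -0.0023 to 0.70, unadjusted p = 0.0514, FDR 0.680), by edgeR's quasi-likelihood test. Between the PLCb1 groups the log2 difference was -0.13 ± 0.16, with an interval of -0.47 to 0.21. Both differences from blank thus missed the FDR of 0.1, and the other 7 fitted members had smaller estimates in each comparison.

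The sample index in the labels is 1, 2 and 3 for blank hearts 26, 30 and 32, and 4, 5 and 6 for hearts 33, 34 and 36. Leaving mitochondrial genes out of the scaling left the PLCb1a difference at 0.48 on the log2 scale. The index runs in group order throughout (1 to 6 blank, 7 to 12 PLCb1a, 13 to 18 PLCb1b), so that anything that follows this index cannot be told apart from the vector. What the index stands for is not given in the sources used here.

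Rgs3, an R4 member with long and short forms, had lower means with either virus that did not pass the test. It ranged from 3.28 to 3.86 FPKM (median 3.55) in blank hearts, from 2.87 to 3.64 (median 3.20) in PLCb1a hearts and from 2.78 to 3.99 (median 3.27) in PLCb1b hearts, with all groups overlapping. Its log2 difference from blank was -0.19 ± 0.083 (SE) in PLCb1a hearts (unadjusted p = 0.0309, FDR 0.517) and -0.12 ± 0.082 in PLCb1b hearts (FDR 0.790), in edgeR's quasi-likelihood test.

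Rgs4, which acts on Gq and Gi and is known from heart and brain, had similar means in the 3 groups. It ranged from 3.46 to 4.40 FPKM in blank hearts (median 3.99), from 3.05 to 4.57 in PLCb1a hearts (median 3.63) and from 3.31 to 4.26 in PLCb1b hearts (median 3.78). The 95% intervals of its log2 difference from blank ran from -0.24 to 0.082 in PLCb1a and from -0.22 to 0.11 in PLCb1b hearts.

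Rgs5, the most deeply counted member with 1480 to 2755 counts per heart, gave the tightest bounds. It ranged from 73.9 to 83.4 FPKM in blank hearts (median 79.6), from 70.4 to 77.4 in PLCb1a hearts (median 74.2) and from 69.2 to 82.3 in PLCb1b hearts (median 76.4). On CPM, 5 of 6 PLCb1a hearts lay below every blank heart, and the exception was heart 14. How many of all genes had 5 of 6 hearts so placed was not counted. The fitted ratio to blank lay between 0.888 and 1.01 in PLCb1a and between 0.916 and 1.04 in PLCb1b hearts (95% intervals; FDR 0.653 and 0.902 in edgeR's quasi-likelihood test).

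Rgs16, an R4 gene known for daily rhythms in brain and liver, was counted 0 to 14 times per heart and could not be fitted. Its counts summed to 27 over the 6 blank hearts, 38 over the PLCb1a hearts and 54 over the PLCb1b hearts (exact Poisson 95% intervals 17.8 to 39.3, 26.9 to 52.2 and 40.6 to 70.5, which cover counting error only). Blank heart 32 had 0 counts, which allows up to 3. In FPKM it ranged from 0 to 0.191 in blank, 0.108 to 0.268 in PLCb1a and 0.160 to 0.335 in PLCb1b hearts. The difference between PLCb1b and blank hearts had an unadjusted p of 0.013 in the exact two-sided permutation test of FPKM, and the 2 groups overlapped.

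Rgs6, which with Gnb5 limits vagal slowing of the heart beat, ranged from 1.88 to 2.54 FPKM in blank hearts (median 2.14), from 1.74 to 2.65 in PLCb1a hearts (median 2.41) and from 2.09 to 2.80 in PLCb1b hearts (median 2.36). Its log2 difference from blank was 0.11 ± 0.094 (SE) in PLCb1a hearts and 0.071 ± 0.095 in PLCb1b hearts. The latter was 0.015 without PLCb1b heart 6, 0.035 without blank heart 33, 0.11 without PLCb1b heart 4, 0.12 without blank heart 36 and 0.13 in limma on log2(FPKM + 0.1). The difference between the PLCb1 groups was -0.035 ± 0.093 but positive, at 0.069, in limma on log2(FPKM + 0.1). The gene 1700085C21Rik overlaps Rgs6 on the opposite strand, and the counting was strand-specific.

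Rgs12, a large R12 protein that also binds Ras and unloaded Gi subunits, was the member nearest to the threshold in PLCb1b hearts. It ranged from 1.63 to 2.01 FPKM in blank hearts (median 1.70), from 1.41 to 2.15 in PLCb1a hearts (median 1.89) and from 1.76 to 2.55 in PLCb1b hearts (median 2.08). On CPM, 5 of 6 PLCb1b hearts lay above every blank heart. The share of all genes with 5 of 6 hearts so placed was not counted. The PLCb1b mean was 1.15-fold the blank mean (log2 0.21 ± 0.073 SE, unadjusted p = 0.00745, FDR 0.484) and the PLCb1a mean 1.06-fold (log2 0.079 ± 0.074, FDR 0.811), and the difference between them was 0.13 ± 0.072 on the log2 scale (unadjusted p = 0.0839), in edgeR's quasi-likelihood test. The microRNA gene Mir3097 lies inside Rgs12 on the same strand.

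Rgs10, a small R12 protein best known from leukocytes and microglia, and Rgs19, an RZ protein anchored at membranes, were counted 17 to 44 and 10 to 33 times per heart. Rgs10 ranged from 1.78 to 2.64 FPKM in blank, 1.92 to 3.24 in PLCb1a and 1.33 to 3.30 in PLCb1b hearts. Rgs19 ranged from 1.003 to 1.19 FPKM in blank, 0.818 to 1.23 in PLCb1a and 0.330 to 1.41 in PLCb1b hearts. The highest PLCb1b heart thus held 2.48 times the Rgs10 and 4.29 times the Rgs19 of the lowest, and the low Rgs19 value, of heart 10, rests on 10 counts. The intervals of their log2 difference from blank were wide, -0.19 to 0.52 for Rgs10 and -0.49 to 0.27 for Rgs19 in PLCb1b hearts. In PLCb1b against blank hearts limma on log2(FPKM + 0.1) gave 0.025 for Rgs10, against 0.17 in the count fit, and -0.40 for Rgs19, against -0.11. With 1 heart left out the count fit gave 0.034 (without PLCb1b heart 8) to 0.28 (without PLCb1b heart 6) for Rgs10 and -0.21 (without PLCb1b heart 8) to 0.0074 (without PLCb1b heart 10) for Rgs19. Rgs10 also moved by over 1.5 times without blank heart 34 (0.25) and PLCb1b heart 16 (0.10), and Rgs19 without blank hearts 26 (-0.051) and 36 (-0.18) and PLCb1b heart 4 (-0.031).

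Rgs14, an R12 protein of brain and lymphoid tissue, was counted 1 to 7 times per heart and could not be fitted. Its FPKM ranged from 0.0380 to 0.156 in blank, 0.0268 to 0.0860 in PLCb1a and 0.0650 to 0.122 in PLCb1b hearts, all overlapping.

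The exact two-sided permutation test of FPKM, over all arrangements of 6 hearts against 6, with a smallest possible p of 0.00216, covers all 10 members in 30 tests. Between PLCb1b and blank hearts 2 of 10 reached an unadjusted p under 0.05, Rgs16 (0.013) and Rgs12 (0.0195), where 4.83% of 18586 genes did. Between PLCb1a and blank hearts 2 of 10 did, Rgs5 (0.0216) and Rgs2 (0.039), where 4.87% did, and between the PLCb1 groups 1 of 10 did, Rgs14 (0.0325), where 3.27% did. These p are not adjusted for the number of tests.

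Members differed in how much they varied between hearts of 1 group. Rgs2 had a within-group SD of 0.28 on the log2 CPM scale, where 1000 genes of similar mean level had a median of 0.10, and it exceeded 98.6% of them. Counting error alone would give it about 0.080, so its spread was 3.55 times that. Rgs5 had an SD of 0.087, 2.76 times its counting error of 0.031, and exceeded 65.2% of 1000 similar genes. Rgs6, Rgs10, Rgs12 and Rgs19 had SDs of 0.15, 0.28, 0.12 and 0.32, each 1.01 to 1.098 times the counting error, so their spread pooled over the groups was near what counting alone gives. Rgs3 and Rgs4 lay between, at 1.43 and 1.29 times. For Rgs10 and Rgs19, whose counting errors were 0.27 and 0.29, the SDs of single groups lay on both sides of that error. Their SDs were 0.42 and 0.47 in PLCb1b hearts, against 0.17 and 0.20 in blank and 0.15 and 0.22 in PLCb1a hearts. Each of these SDs rests on 6 hearts, and whether the spread differed between groups was not tested.

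**Figure D3:**
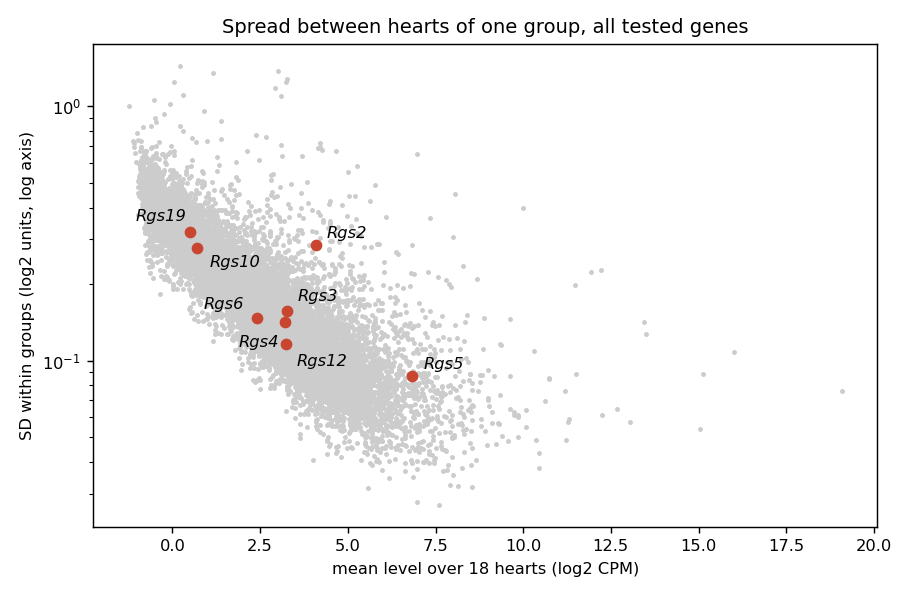
Within-group SD (log2 units, log axis) against mean level (log2 CPM) of 12281 tested genes (grey) with the 8 RGS genes past the filter in red. Rgs2, at an SD of 0.28, stands above most genes of its level, and the other 7 lie inside the cloud.

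The level of Plcb1 varied within the PLCb1 groups, so a slope on log2 Plcb1 CPM was fitted across the 12 hearts with a term for group. At an FDR below 0.1, 0 of 8 members were called (0.546% of 12091 genes were), and 2 of 8 stood at an unadjusted p under 0.05, against 9.43%. Rgs10 had a slope of -0.47 ± 0.19 (SE) log2 units per doubling of Plcb1 (unadjusted p = 0.0178, FDR 0.382), and Rgs5 one of -0.11 ± 0.052 (unadjusted p = 0.0477, FDR 0.520), in edgeR's quasi-likelihood test. The slope of Rgs2 was -0.16 ± 0.18 (FDR 0.860). Under other settings of the fit the slope of Rgs5 shrank to as little as -0.017 and that of Rgs10 to -0.26. With 1 heart left out, that of Rgs5 ran from -0.21 to -0.063 and that of Rgs10 from -0.63 to -0.35. Slopes were negative for 6 of the 8 members, with a median of -0.12 beside -0.0020 over all genes. Median slopes of the marker lists took both signs. They were positive for the pericyte (0.028, without Rgs4 and Rgs5), cardiomyocyte (0.015), atrial (0.016) and clock (0.099) lists. Negative medians were those of the smooth muscle (-0.072), fibroblast (-0.039), immediate early (-0.040), platelet and megakaryocyte (-0.59), leukocyte and endothelial lists. The 6 leukocyte markers fitted ran from -0.31 to -0.027 with a median of -0.16, 1 of them at an unadjusted p under 0.05, and the 7 endothelial markers had a median of -0.080, with Emcn (-0.24), Cdh5 (-0.15) and Pecam1 (-0.15) at an unadjusted p under 0.05 and none called. The part of these cell types in the slopes of Rgs10 and Rgs5 was not tested.

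**Figure D4:**
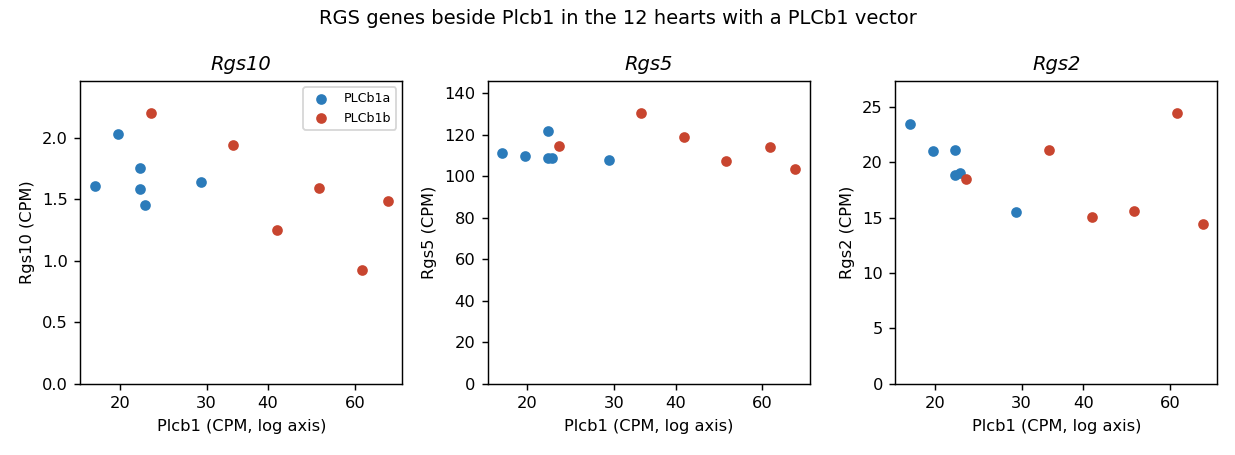
CPM of Rgs10, Rgs5 and Rgs2 against CPM of Plcb1 (log axis) in 6 PLCb1a and 6 PLCb1b hearts, 1 point per heart. Plcb1 runs from 17.8 to 70.0 CPM, and the fitted slope of Rgs10 is -0.47 log2 units per doubling.

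The pathway around the RGS genes was read from gene lists. Of 5 receptor kinases with an RGS-like domain, 5 were tested and 0 were called in any comparison. Of 12 G alpha subunits 9 were tested and 0 called, Gnaq differing from blank by 0.015 ± 0.064 (SE) in PLCb1a and -0.0038 ± 0.064 in PLCb1b hearts and Gna11 by -0.017 ± 0.059 and -0.0086 ± 0.059 on the log2 scale. Of 6 exchange factors and GoLoco regulators, which load or hold G alpha subunits, 5 were tested and 0 called. Of 7 Gq effectors tested, Plcb1 alone was called, higher in both PLCb1 groups. Of 21 Gq-coupled receptors 16 were tested, and none was called between groups. On the Plcb1 slope the endothelin receptor Ednrb was called, at -0.34 ± 0.084 (FDR 0.0809, edgeR's quasi-likelihood test), 1 of 15 receptors fitted there, where 0.546% of all genes were called. Without a group term the slope called 7 genes in all in place of 66.

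Because bulk RNA cannot tell fewer cells of a type from less RNA per cell, marker lists were read beside the members. The 6 cardiomyocyte markers summed to 14879 to 16393 CPM over all hearts, against 24.2 to 61.0 CPM for 5 atrial markers, and no defining marker was at 0 in every heart. The atrial marker Bmp10 (0 to 4 counts per heart) and the leukocyte marker Cd3e (0 to 3) were below the filter on low counts. The 8 pericyte markers, with Rgs4 and Rgs5 left out, summed to 323 to 353 CPM in blank, 331 to 359 in PLCb1a and 338 to 377 in PLCb1b hearts. Most of that sum was Abcc9, at 3106 to 5680 counts per heart, against 424 to 896 for Pdgfrb, the next highest. These overlapping ranges therefore mainly follow 1 gene and not the list as a whole. Of the 8 genes 0 were called between groups. At an unadjusted p under 0.05 in edgeR's quasi-likelihood test, Pdgfrb alone was higher in PLCb1b than in blank hearts (log2 0.17 ± 0.052 SE, FDR 0.349). Between PLCb1a and blank hearts 0 of 8 reached such a p. In PLCb1b against PLCb1a hearts 2 of 8 did, both higher, 1 of them Pdgfrb, where 4.42% of all genes did. Summed ranges of the smooth muscle (6 genes), endothelial (7), fibroblast (6) and leukocyte (7) lists likewise overlapped between all 3 groups, and 0 of their genes were called between groups. Platelet and megakaryocyte markers (5 genes) summed to 3.12 to 7.001 CPM in blank and PLCb1b hearts and 4.09 to 11.7 in PLCb1a hearts, with Gp9 and Gp1ba below the filter. Clock genes (11 in the table) summed to 217 to 348 CPM in blank, 270 to 333 in PLCb1a and 267 to 323 in PLCb1b hearts. On the Plcb1 slope, 1 of 6 fibroblast markers was called, Tcf21 at 0.90 ± 0.23 (FDR 0.0890, edgeR's quasi-likelihood test), while the median of the 6 was -0.039 and the other 5 did not reach an unadjusted p under 0.05.

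The immediate early genes, which respond to stimulation of a cell within minutes, were set beside Rgs2. Rgs2 is itself known as an early gene of cell stimulation. The 11 genes, such as Fos and Egr1, summed to 69.9 to 136 CPM in blank, 104 to 327 in PLCb1a and 93.2 to 208 in PLCb1b hearts. Of the 11, 0 were called in any comparison, and 4 were at an unadjusted p under 0.05 and higher in PLCb1a than in blank hearts, where 8.58% of all genes were at such a p in either direction. Their median log2 difference from blank was 0.64 in PLCb1a and 0.50 in PLCb1b hearts, beside -0.0018 and -0.00089 over all genes. The median of the summed list was 105 CPM in blank, 131 in PLCb1a and 123 in PLCb1b hearts, and PLCb1a heart 7, at 327 CPM, stood above the next PLCb1a heart, at 144 CPM.

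Across the 18 hearts, Rgs2 rose with the mean log2 CPM of the immediate early list, with a Pearson r of 0.732 (permutation p = 0.00062, 0.0031 after adjustment over 5 relations) and a Spearman rho of 0.738 (permutation p = 0.00065, adjusted 0.00325). The adjustment covers the 5 relations and not their choice, which was made with earlier results of these data known. On deviations from the group means r was 0.629 (permutation p = 0.00426, adjusted 0.0213), and without the 2 hearts farthest from the median of the list it was 0.736 (permutation p = 0.00127, adjusted 0.00635). All 11 list genes correlated positively with Rgs2, with single r from 0.416 to 0.760. PLCb1a heart 7, with the highest summed list at 327 CPM, held 9.75 FPKM of Rgs2, and blank heart 30, with the lowest at 69.9 CPM, held 3.95. Hearts of similar list level could differ in Rgs2. PLCb1a heart 13 (104 CPM) and PLCb1b heart 8 (93.2 CPM) held 8.58 and 7.58 FPKM, and blank hearts 26 (106 CPM) and 32 (100 CPM) held 4.31 and 4.55. Other hearts near that level were ordered the other way. Blank heart 33 (103 CPM) held 6.32 FPKM, and PLCb1b hearts 10 (97.6 CPM) and 17 (112 CPM) held 6.09 and 5.76. The part of the immediate early list in the difference of Rgs2 between groups was not tested.

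**Figure D5:**
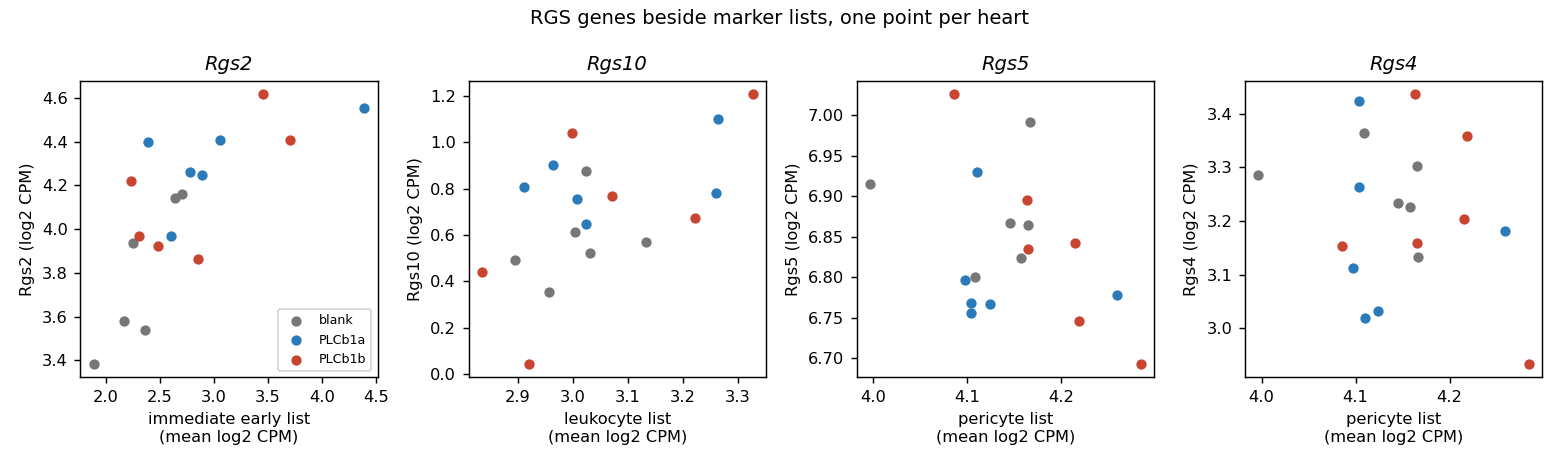
Log2 CPM of Rgs2, Rgs10, Rgs5 and Rgs4 against the mean log2 CPM of a marker list (genes of the list other than the members) in 18 hearts, 1 point per heart. Rgs2 rises with the immediate early list (r = 0.732), and Rgs5 does not rise with the pericyte list (r = -0.429).

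The other 4 relations were weaker. Rgs10 correlated with 6 leukocyte markers (r = 0.576, permutation p = 0.0119, adjusted 0.0298; rho = 0.513, permutation p = 0.0316, adjusted 0.0791), and r was 0.557 on deviations from group means (permutation p = 0.0148, adjusted 0.0369). Without the 2 hearts farthest from the median of the list r was 0.316 (permutation p = 0.231, adjusted 0.578), so that the relation rests on those hearts. Rgs5 did not rise with the other pericyte markers (r = -0.429, permutation p = 0.0767, adjusted 0.128; rho = -0.276, permutation p = 0.266, adjusted 0.443). Single pericyte genes correlated with Rgs5 at r from -0.579 (Cspg4) to 0.122 (Kcnj8), and the list r was -0.492 on deviations from group means (permutation p = 0.0387, adjusted 0.0614) and -0.198 without the 2 farthest hearts. Rgs4 and the same list had r = -0.232 (permutation p = 0.355, adjusted 0.444; rho = -0.121, permutation p = 0.633, adjusted 0.737). Rgs16, on log2 CPM from 0 to 14 counts, and 11 clock genes had r = -0.123 (permutation p = 0.628, adjusted 0.628; rho = -0.0857, permutation p = 0.737, adjusted 0.737), and r = -0.467 on deviations from group means (permutation p = 0.0492, adjusted 0.0614).

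The genes most alike to each member were taken as the 3 highest Pearson r of log2 CPM over the 18 hearts, after subtracting group means, among 12280 genes, and are a description without a test. For Rgs2 they were Coq10b (r = 0.838), Gpr146 (0.812) and the chemerin-binding receptor Ccrl2 (0.808). For Rgs5 they were the splicing regulator Mbnl1 (r = 0.872), the ribosomal gene Rpl23 (0.868) and Sh3glb1 (0.858), none of them in the pericyte list. For Rgs4 they were Setdb2 (r = 0.761), Trim27 (0.759) and Acad8 (0.745), and for Rgs3 they were Traf7 (0.818), 1700021K19Rik (0.759) and Ms4a7 (0.744). Rgs6 was closest to Tesc (r = 0.824), the calpain inhibitor Cast (0.782) and Spata24 (0.773), and Rgs12 to the ficolin gene Fcna (0.800), Endod1 (0.797) and Rnaseh2a (0.796). Rgs10 was closest to Thrsp (r = 0.877), a regulator of fat synthesis that stood at 4.95 to 13.2 FPKM in these hearts, then to Sema3g (0.847) and Fam124a (0.833). Rgs19 was closest to Cidea (r = 0.820), a lipid droplet gene of fat cells that stood at 5.53 to 8.60 FPKM, then to Gm13375 (0.809) and Lgi2 (0.800). These 24 genes were called in no comparison of groups at an FDR below 0.1, and 3, 1 and 1 of them were at an unadjusted p under 0.05 in edgeR's quasi-likelihood test between PLCb1b and blank (7.41% of all genes), PLCb1a and blank (8.58%), and the PLCb1 groups (4.42%). On the Plcb1 slope 4 of 23 were at such a p (9.43% of all genes) and 0 were called. The lowest r of each member among the 12280 genes was of similar size, from -0.842 for Rgs5 to -0.789 for Rgs10. With 18 hearts and no test, the highest r among so many genes cannot be told apart from chance extremes.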

How the data were processed

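Total RNA of 18 hearts was depleted of ribosomal RNA and sequenced as strand-specific read pairs. The authors aligned reads to mm10 (TopHat2 2.0.10 per the submitters' processing notes) and counted them per gene with HTSeq in strand-specific union mode, and these deposited counts are whole numbers without normalization. The deposited FPKM table was scaled by the authors to exon length and depth. The processing notes list Cufflinks 2.1, and no source used here ties it to that table. Other supplementary tables and the authors' own comparisons were not used.

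The 10 members, the gene lists and the tests were chosen with earlier results of these data known. Text names all members, list genes called anywhere, Plcb1, Gnaq, Gna11, other RGS genes past the filter, and the 3 genes most alike to each member. Kcnj8, Cspg4, Abcc9, Pdgfrb, Fos and Egr1 appear as examples or extremes. Bmp10, Cd3e, Gp9 and Gp1ba are named as markers below the filter, and Emcn, Cdh5 and Pecam1 for their slopes.

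Counts were scaled by TMM, filtered with filterByExpr (minimum count 10, minimum total 15) and fitted with edgeR 4.0.16 (quasi-likelihood, robust dispersions, 1 model of the 3 groups, R 4.3.3). The p-values were adjusted by Benjamini-Hochberg across every tested gene, with a call at an FDR below 0.1. Log2 CPM used a prior count of 2. Relations used 100000 permutations (scipy 1.17.1, numpy 2.4.6). Mouse numbers are not shared between groups, so nothing was paired. Within-group library pairs differed by 1.79 to 9.04 in mean chi-square per gene, and none counted as a duplicate. Alternatives were DESeq2 1.42.0, limma 3.58.1 on log2(FPKM + 0.1) or log2(FPKM + 1), no filter, only the groups compared, mitochondrial genes (37) left out and each heart left out. Dispersions without the robust option were chosen after seeing the data. Programs were tested on simulated data.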

Additional observations from a re-analysis of the deposited data

Results flagged for a closer look

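Of 30 groups of 6 hearts (10 members in 3 groups), 1 held a heart far from the other 5. Rgs5 in PLCb1a heart 14 stood at 121.8 CPM, while the other 5 PLCb1a hearts lay between 107.9 and 111.002 CPM, and its gap took 0.777 of the group's range, where 0.625 is the critical value for 6. Chance alone gives a gap past that critical value in about 1 of 20 groups. In FPKM the same heart stood at 73.8, inside the range of its group, and its library is the smallest of the 18 in nuclear counts (3908354).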

How the results depend on the processing

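Across 528 refits of a member with 1 heart left out and 192 under other settings, none brought a member past the FDR of 0.1 (lowest FDR 0.116, the slope of Rgs2 without PLCb1b heart 6, and 0.215, Rgs2 between PLCb1a and blank hearts with DESeq2). Without 1 heart the log2 difference of Rgs2 from blank lay between 0.41 and 0.56 in PLCb1a and between 0.25 and 0.43 in PLCb1b hearts, and that of Rgs12 in PLCb1b hearts between 0.17 and 0.24. A direction turned in 15 of the 528 and 4 of the 192. With 1 heart left out these were Rgs4 (-0.10 to 0.00071) and Rgs19 (-0.21 to 0.0074) for PLCb1b against blank, Rgs19 (-0.11 to 0.042) for PLCb1a against blank, Rgs4 (-0.025 to 0.081), Rgs6 (-0.092 to 0.010), Rgs10 (-0.23 to 0.015) and Rgs19 (-0.17 to 0.042) for PLCb1b against PLCb1a, and the slopes of Rgs4 (-0.10 to 0.12) and Rgs19 (-0.32 to 0.096). Under other settings they were Rgs6 between the PLCb1 groups (0.069 and 0.049 with limma on log2(FPKM + 0.1) and log2(FPKM + 1)) and the slopes of Rgs4 (0.0029) and Rgs12 (0.021) without a group term.

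The number of all genes called between PLCb1b and blank hearts was 12, and 24 without the filter, 24 with DESeq2, 5 and 5 with limma on the 2 pseudocounts and 2 to 18 without 1 heart. Between PLCb1a and blank hearts it was 17, and 29 without the filter, 10 without robust dispersions, 10 with only the groups compared, 33 with DESeq2, 6 and 6 with limma and 3 to 19 without 1 heart. Between the PLCb1 groups it was 0, and 1 without robust dispersions, 1 with DESeq2 and 0 to 1 without 1 heart. On the slope it was 66, and 7 without a group term, 178 without the filter and 21 to 93 without 1 heart. The cause of these shifts was not tested. Without the 2 hearts farthest from the median of its list, r of Rgs10 fell to 0.316 and that of Rgs4 turned to 0.122, and the other 3 relations kept their direction. By counts per kilobase Rgs6, Rgs10, Rgs12 and Rgs3 ranked 4, 5, 6 and 7. No paired analysis was possible because the groups share no mouse numbers. Depth limits Rgs10, Rgs14, Rgs16 and Rgs19, all under 45 counts in every heart.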

Other observations

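Among the 28 pairs of the 8 members past the filter, Pearson r of log2 CPM over 18 hearts, after subtracting group means, was positive in 13, with a median of -0.027 and a range from -0.46 to 0.42. The highest was that of Rgs5 and Rgs19. Rgs4 and Rgs5, neighbours on chromosome 1, are among these pairs. The hearts are shared by all pairs, and no test was made.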
